A study of Mus musculus with 6 samples.

Results

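The genes described here are 10 receptors through which B cells sense cytokines and the survival factor BAFF: Il4ra, Il21r, Il2rg, Il10ra, Ifngr1, Ifnar1, Tgfbr1, Tgfbr2, Tnfrsf13b and Tnfrsf13c. They were chosen by gene name from a table of 19680 genes, in which each has a single row, and all 10 passed the filter on low values (a mean normalized count of at least 1). Transcripts were measured by RNA sequencing in splenic germinal center (GC) B cells, sorted as B220+ CD38- FAS+ cells from C57BL/6 mice aged 6 to 8 weeks, 14 days after an intraperitoneal injection of 100 µg NP-CGG, a carrier protein coupled to a small hapten. The 3 WT libraries came from Senp1flox/flox mice, and the 3 cKO libraries from mice that carry the Cγ1-Cre transgene beside the same floxed alleles. Cre was present only in cKO, so loss of Senp1 and presence of Cre cannot be told apart, and the Cγ1 locus drives Cre in B cells activated towards IgG1. Senp1 codes for a SUMO protease, an enzyme that strips the small modifier SUMO off its substrates. Setting cKO beside WT asks how receptor transcripts differ where this enzyme is deleted in the germinal center.

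These receptors belong to 4 structural families. Il4ra and Il21r encode ligand-binding chains that signal together with Il2rg, the common gamma chain, through JAK kinases and STAT transcription factors, and T follicular helper cells in the germinal center supply their ligands IL-4 and IL-21. Il10ra, Ifngr1 and Ifnar1 encode chains of the receptors for IL-10, interferon gamma and type I interferon, which also act through JAKs and STATs. Tgfbr1 and Tgfbr2 encode the serine/threonine kinases of the TGF-beta receptor, which phosphorylate SMAD proteins and restrain B cell growth. Tnfrsf13c encodes BAFF-R, the receptor that keeps mature B cells alive through noncanonical NF-kB, and Tnfrsf13b encodes TACI, which binds BAFF and APRIL.

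The libraries held 5160902 to 10339054 gene-assigned reads in WT and 3019152 to 9657005 in cKO, with cKO replicates 2 and 3 the shallowest at 3019152 and 3082897. Senp1 was lower in every cKO library (373, 425 and 398 normalized counts) than in every WT library (915, 868 and 891), 2.24-fold in the fit, with a limma adjusted p of 0.111 and an adjusted p of 2.38e-09 in the authors' deposited table. The first principal component, 33.2% of the variance, placed replicate 1 of both groups at -54.4 and -49.1, cKO replicates 2 and 3 at 56.2 and 41.2, and WT replicates 2 and 3 at -10.1 and 16.3. GC B cell markers were abundant: the 10 listed genes, among them Fas and Bcl6, summed to 40677 to 42588 normalized counts in the WT libraries and 34453 to 38138 in the cKO libraries, without overlap. Values below are normalized counts, that is, reads scaled by the size factor of their library, and ± gives the SD over the 3 libraries of a group (n = 3) where nothing else is stated. Whether every library is a separate mouse is not stated in the labels, and the tests see the spread between libraries only.

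No receptor among the 10 passed the test between cKO and WT. Limma on log2(normalized count + 1), adjusted by Benjamini-Hochberg over 14678 genes, called 0 of 10, and it called 0% of all genes. At an unadjusted p under 0.05 there was 1 receptor, Tgfbr1, where 5.15% of all genes reached that level. EdgeR on reads recovered from the table called 0 of the 10 (0% of all genes; 5.66% at an unadjusted p under 0.05, again with Tgfbr1 alone among the 10). DESeq2 on the same reads called 0 of the 10 and 0.147% of all genes, with 4.11% of genes, and Tgfbr1 of the 10, at an unadjusted p under 0.05. With a term for replicate 1, limma called 0 of the 10 and 0.0204% of all genes, with 9.16% of genes, and Tgfbr1 of the 10, at an unadjusted p under 0.05. The authors' deposited table calls none of the 10, against 0.197% of genes with an adjusted p, and the deposited unadjusted p of Tgfbr1 is 0.0244. Groups did not overlap for 1 receptor, Tgfbr1, and for 11.6% of all genes.

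The log2 differences (cKO minus WT) were positive for 8 of 10 receptors and negative for Tgfbr1 and Tgfbr2, with a median of 0.11 beside -0.0019 over all genes tested. How many were positive depended on the scaling: with library totals alone 5 of 10 were positive, with a median of 0.032 beside -0.078 for all genes. Without cKO replicate 2 the median was 0.051, with 6 of 10 positive. In replicate 1 alone the median difference was 0.10, and in replicates 2 and 3 it was 0.11. The 95% confidence intervals of the 10 differences reached from 0.597-fold (Tgfbr1) to 2.14-fold (Il10ra), and the next highest upper bound was 1.71-fold (Il2rg).

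**Figure D1:**
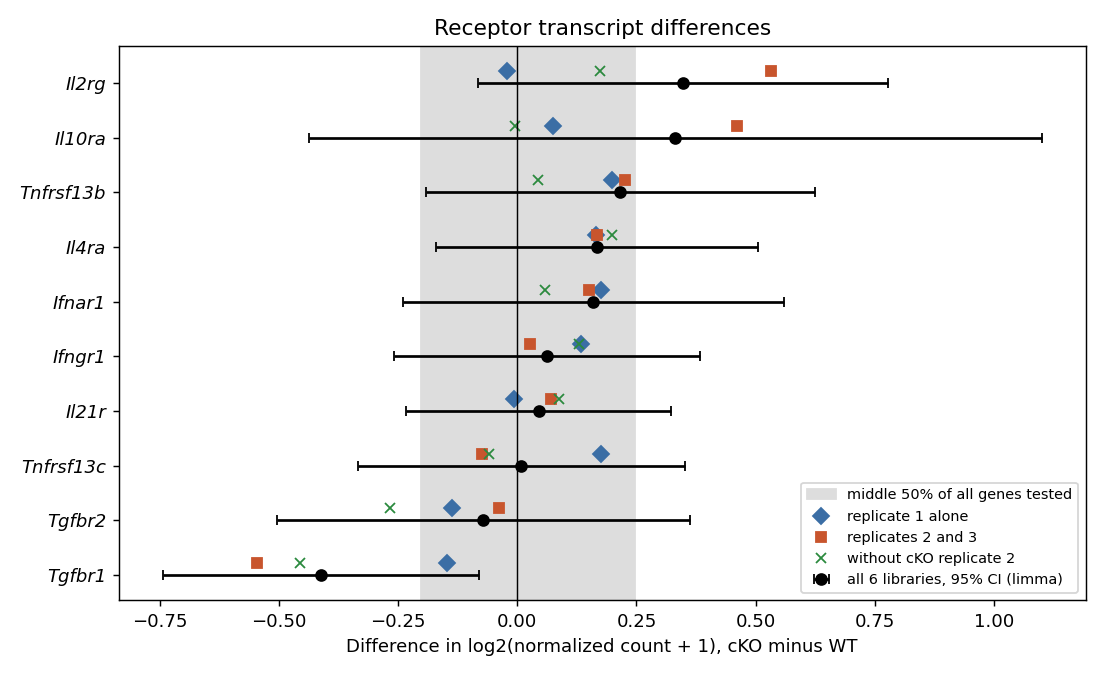
Difference in log2(normalized count + 1), cKO minus WT, for each receptor. Black circles with bars show all 6 libraries with the 95% confidence interval from limma, diamonds replicate 1 alone, squares replicates 2 and 3, and crosses the fit without cKO replicate 2, and the grey band holds the middle 50% of all genes tested. Only the interval of Tgfbr1 (-0.74 to -0.081) leaves out 0, and the values of Il2rg and Il10ra move most between the subsets.

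Read per kilobase of annotated exon, the receptors spanned a wide range of level within GC B cells, and the order was led by Tnfrsf13c and Il21r. BAFF-R stood at 1126 ± 126 normalized counts per kilobase (SD over the 6 libraries, n = 6, as for the levels that follow), above 98.6% of the genes tested, and Il21r at 535 ± 31.9, above 96.9%. The ranges of these over the 6 libraries did not overlap each other or any other receptor. Next came Tnfrsf13b (231 ± 43.6), Il4ra (215 ± 26.0), Ifngr1 (174 ± 15.9) and Il2rg (170.4 ± 38.5) normalized counts per kilobase, and each overlapped its neighbour in this order. The TGF-beta chains followed at 104 ± 18.7 for Tgfbr2 and 94.0 ± 17.3 for Tgfbr1, below the range of Il2rg and overlapping each other. Il10ra (50.5 ± 19.7) and Ifnar1 (35.7 ± 4.83) were lowest, and both still lay above the median of all genes tested, 22.9. Il10ra overlapped Tgfbr1 through a single library, cKO replicate 2, and overlapped Ifnar1. Exon lengths were taken from GENCODE M21, since no label names the annotation the authors counted on, and the order depends on those lengths.

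**Figure D2:**
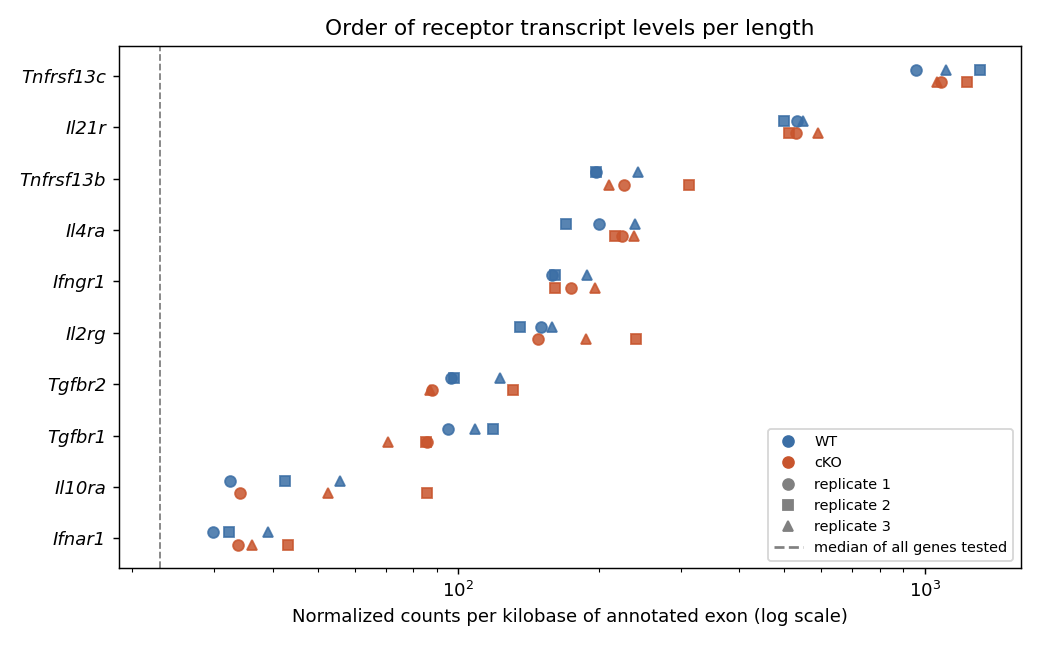
Normalized counts per kilobase of annotated exon (log scale) for the 10 receptors, in order of their mean, with WT libraries in blue and cKO libraries in orange and a marker for each replicate number. The dashed line is the median of all genes tested, 22.9, and every receptor lies to its right in every library.

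Il4ra and Il21r, neighbours on chromosome 7 (GRCm38), did not pass the test, and their groups overlapped. Il4ra (ENSMUSG00000030748, 125552120 to 125579474) and Il21r (ENSMUSG00000030745, 125603429 to 125633570) lie on the same strand, 23.954 kb apart with no annotated gene between them. Il21r measured 1766, 1657 and 1823 normalized counts in the WT libraries (replicates 1, 2 and 3, the order used throughout) and 1758, 1699 and 1959 in the cKO libraries. It had the smallest SD of log2 values over the 6 libraries of the 10 receptors (0.085), and the groups overlapped: its log2 difference was 0.044 (95% confidence interval -0.23 to 0.32, limma adjusted p = 0.980), so the interval holds changes of 0.85-fold to 1.25-fold. Il4ra measured 1204, 1024 and 1434 in WT and 1350, 1298 and 1428 in cKO. The WT libraries spread over a wider range than the cKO libraries, which all lay within it. Its log2 difference was 0.17 ± 0.15 (SE), at a limma adjusted p of 0.933, and it was 0.17 both in replicate 1 and in replicates 2 and 3. It was 0.047 without WT replicate 2 and 0.29 without WT replicate 3. An antisense transcript annotated opposite Il4ra shares 9.51% of its exon bases, and it has no row in the table. No label states whether the authors counted by strand.

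The common gamma chain gene Il2rg, on the X chromosome (101264378 to 101268255), was higher in 2 of 3 cKO libraries. Il2rg measured 359, 324 and 380.2 normalized counts in WT libraries and 354, 573 and 449 in cKO. cKO replicates 2 and 3 exceeded every WT library, while cKO replicate 1 lay inside the WT range. The log2 difference was 0.35 (95% confidence interval -0.082 to 0.78, limma adjusted p = 0.915). It was -0.021 in replicate 1 and 0.53 in replicates 2 and 3, and 0.17 without cKO replicate 2. Gm20489, annotated on the same strand, shares 30.5% of the exon bases of Il2rg and has no row in the table. How reads in the shared part were counted is not known, so the Il2rg value is uncertain. Per kilobase, WT libraries had Il21r to Il2rg ratios of 3.53, 3.68 and 3.44, and cKO libraries 3.57, 2.13 and 3.13, and that of Il4ra to Il2rg was 1.36 ± 0.124 in WT and 1.52, 0.901 and 1.26 in cKO. Both ratios were lowest in cKO replicate 2 and overlapped between the groups.

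Receptor chains for interferons and IL-10 did not separate the groups. Ifngr1, the ligand-binding chain for interferon gamma (chromosome 10, 19591949 to 19610229), measured 453, 459.9 and 538 normalized counts in WT libraries and 497, 459.3 and 559.7 in cKO. Replicate 3 was highest in both groups. Its log2 difference was 0.062 (95% confidence interval -0.26 to 0.38, limma adjusted p = 0.974). Ifnar1, a chain of the type I interferon receptor (chromosome 16, 91485238 to 91507441), measured 177, 192 and 232 in WT and 201, 256 and 214 in cKO, at a log2 difference of 0.16 (-0.24 to 0.56, limma adjusted p = 0.942). That difference was 0.058 without cKO replicate 2, 0.077 without WT replicate 1 and 0.27 without WT replicate 3. cKO replicate 2 was the highest library and WT replicate 1 the lowest. Ifnar1 sits in a cluster of receptor genes on chromosome 16, 59.403 kb after Il10rb and 39.63 kb before Ifngr2, and Ifnar2 ends 0.574 kb before Il10rb.

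Il10ra, the ligand-binding chain for IL-10 (chromosome 9, 45253837 to 45269149), had the largest SD of log2 values of the 10 receptors (0.52). It measured 113, 149 and 195 normalized counts in WT libraries and 119, 299.9 and 184 in cKO, from 90 to 228 reads. Replicate 1 was lowest in both groups, cKO replicate 2 was the highest, and cKO replicate 3 lay inside the WT range. The log2 difference was 0.33 (95% confidence interval -0.44 to 1.10, limma adjusted p = 0.937), and it was -0.0058 without cKO replicate 2. Partner chains are named because they pair with the receptors, outside the rule for named genes. Il10rb measured 57.8 ± 25.7 in WT and 78.6 ± 31.1 in cKO, Ifngr2 164 ± 40.3 and 206 ± 54.9, and Ifnar2 43.1 ± 10.2 and 49.8 ± 21.8 normalized counts, and the groups overlapped for each. Per kilobase, the listed receptor exceeded its partner chain in all 6 libraries: 2.23-fold to 3.69-fold for Il10ra over Il10rb, 2.46-fold to 4.64-fold for Ifngr1 over Ifngr2, and 1.84-fold to 4.20-fold for Ifnar1 over Ifnar2.

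Tgfbr1, the type I kinase of the TGF-beta receptor (chromosome 4, 47353222 to 47414931), was the receptor whose cKO libraries all lay below all WT libraries. It measured 621, 775 and 709 normalized counts in WT libraries and 561, 558 and 462 in cKO, from 226 to 1228 reads. Between the lowest WT library (replicate 1) and the highest cKO library (also replicate 1) the gap was narrow. The means were 702 ± 77.4 and 527 ± 56.4, a 1.33-fold difference in the fit, with a log2 difference of -0.41 ± 0.15 (SE; 95% confidence interval -0.74 to -0.081). Its limma adjusted p was 0.915, and 5.28% of all genes had every cKO library below every WT library. The log2 difference was -0.15 in replicate 1, -0.55 in replicates 2 and 3, and -0.46 without cKO replicate 2. Over the 18 alternatives it ranged from -0.55 to -0.32, always negative, with adjusted p from 0.359 to 0.9996. Among these, the filters on low values, the replicate block and the term for replicate 1 cannot change the difference itself.

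Tgfbr2, the type II kinase that binds the ligand first and then activates the type I chain (chromosome 9, 116084293 to 116175360), had overlapping groups. It measured 791, 803 and 1006 normalized counts in WT libraries and 719, 1074 and 713 in cKO. cKO replicates 1 and 3 were the lowest libraries and cKO replicate 2 the highest. Its log2 difference was -0.072 (95% confidence interval -0.51 to 0.36, limma adjusted p = 0.979) and -0.27 without cKO replicate 2 (limma adjusted p = 0.890). Per kilobase, WT libraries had Tgfbr2 to Tgfbr1 ratios of 1.02, 0.827 and 1.13, and cKO libraries 1.02, 1.54 and 1.23, so the groups overlapped.

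To show what lies before the start of each TGF-beta and BAFF receptor gene, the 250 bases upstream of the RefSeq start (GRCm38.p6) are given below, 5′ to 3′ on the strand of the gene, with GC boxes (GGGCGG, a motif that Sp1 binds, read on both strands) in capitals. Tgfbr1 lies at chr4:47352972-47353221 (plus strand, the first of its 2 RefSeq starts), Tgfbr2 at chr9:116175364-116175613 (minus), Tnfrsf13c at chr15:82224381-82224630 (minus) and Tnfrsf13b at chr11:61126505-61126754 (plus).
Tgfbr1: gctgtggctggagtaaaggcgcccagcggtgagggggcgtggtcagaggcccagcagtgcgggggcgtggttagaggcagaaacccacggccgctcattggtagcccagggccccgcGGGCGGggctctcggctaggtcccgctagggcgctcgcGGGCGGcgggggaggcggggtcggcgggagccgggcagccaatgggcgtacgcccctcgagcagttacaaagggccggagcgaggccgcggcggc
Tgfbr2: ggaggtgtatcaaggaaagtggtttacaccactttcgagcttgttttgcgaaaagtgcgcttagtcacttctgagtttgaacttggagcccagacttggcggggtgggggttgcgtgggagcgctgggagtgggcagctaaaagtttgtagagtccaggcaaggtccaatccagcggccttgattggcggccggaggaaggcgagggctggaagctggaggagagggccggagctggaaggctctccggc
Tnfrsf13c: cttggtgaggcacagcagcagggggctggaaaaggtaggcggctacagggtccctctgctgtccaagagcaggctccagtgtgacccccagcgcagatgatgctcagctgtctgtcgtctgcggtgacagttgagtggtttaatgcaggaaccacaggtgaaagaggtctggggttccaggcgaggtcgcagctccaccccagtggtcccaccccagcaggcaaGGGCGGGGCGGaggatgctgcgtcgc
Tnfrsf13b: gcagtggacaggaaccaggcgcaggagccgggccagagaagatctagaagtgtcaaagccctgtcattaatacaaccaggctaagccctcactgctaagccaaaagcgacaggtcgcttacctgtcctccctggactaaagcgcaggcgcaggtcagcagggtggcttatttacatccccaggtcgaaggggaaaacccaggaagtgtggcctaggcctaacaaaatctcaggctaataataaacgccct
The Tgfbr1 stretch is 74.8% G or C with 29 CG dinucleotides, and that of Tgfbr2 58.4% with 12, beside medians of 52.4% and 6 over 32851 RefSeq promoters. GC boxes numbered 2 before Tgfbr1 and none before Tgfbr2. Before Tnfrsf13c (63.2% G or C) 2 GC boxes overlap within the last 26 bases, and before Tnfrsf13b (54.0%) these letters are not found. Of the 10 receptors, 9 matched a RefSeq promoter by symbol, with 10 promoters among them. A GC box was found in 6 of these 10 promoters, beside 32.7% of all promoters. The TATA box letters TATAAA (12.4% of all promoters), the STAT-binding GAS letters TTCNNNGAA (7.02%) and the core of the interferon-stimulated response element (2.98%), each read on both strands, were found before none of the 9. These matches describe letters in this window only.

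Neither BAFF receptor passed the test. Tnfrsf13c, which encodes BAFF-R (chromosome 15, 82221743 to 82224369), measured 1966, 2684 and 2272 normalized counts in WT libraries and 2219, 2528 and 2173 in cKO. The cKO libraries lay inside the WT range, and the means were 2307 ± 360.5 and 2307 ± 193. Its log2 difference was 0.0083 (95% confidence interval -0.34 to 0.35, limma adjusted p = 0.996), which holds changes from 0.79-fold to 1.28-fold. The sign was negative in replicates 2 and 3 (-0.075) and positive in replicate 1 (0.17). Tnfrsf13b, which encodes TACI (chromosome 11, 61126755 to 61149372), measured 559, 561 and 689 in WT and 642, 886 and 596 in cKO. cKO replicate 2 was the highest library, and the other cKO libraries lay inside the WT range. Its log2 difference was 0.22 (95% confidence interval -0.19 to 0.62, limma adjusted p = 0.930) and 0.044 without cKO replicate 2. Per kilobase BAFF-R exceeded TACI in all 6 libraries, 4.87-fold, 6.62-fold and 4.56-fold in WT and 4.79-fold, 3.95-fold and 5.05-fold in cKO.

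**Figure D3:**
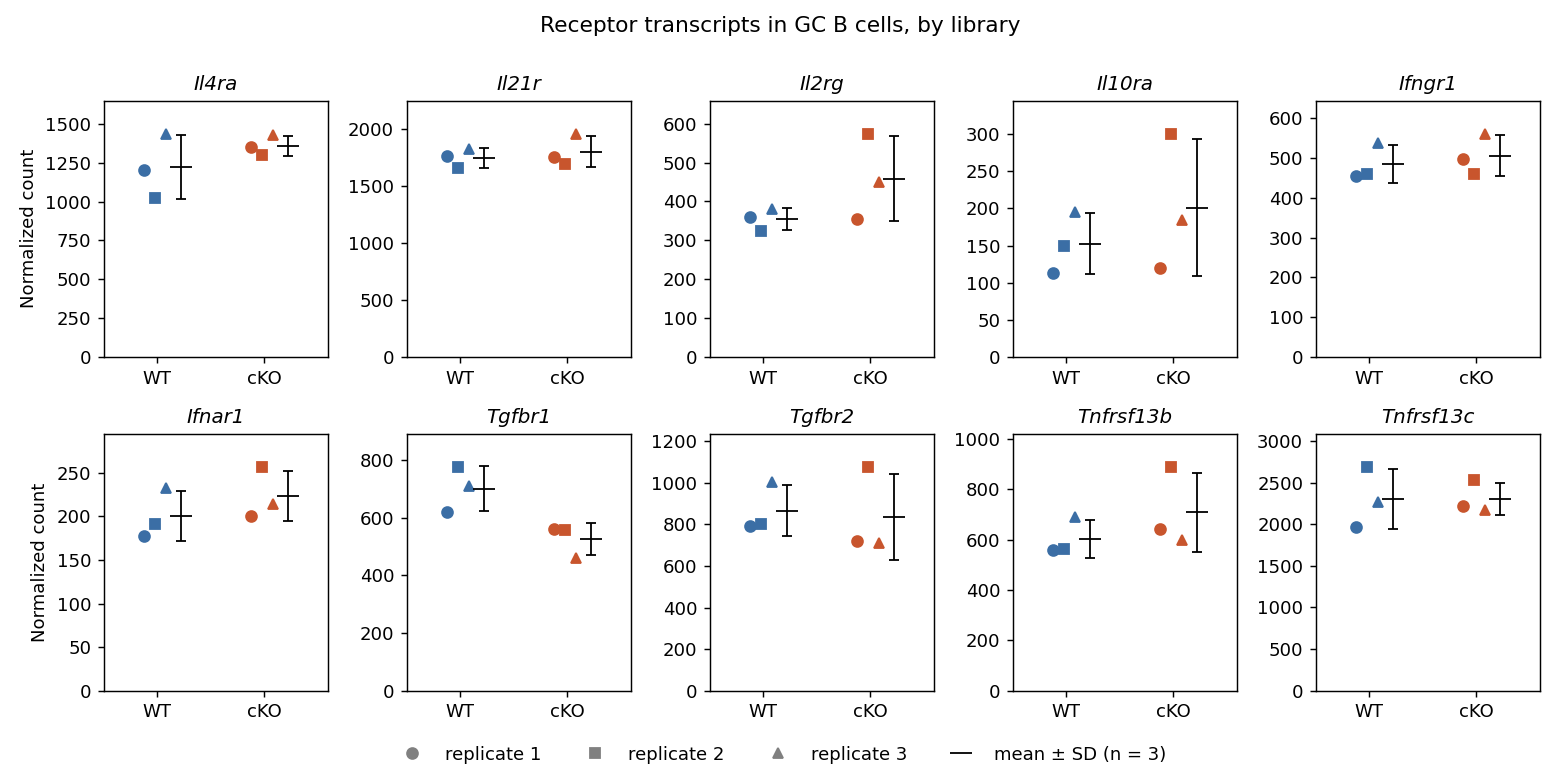
Normalized counts of the 10 receptors in each library, with a marker for each replicate number and black bars for the mean ± SD of 3 libraries. Each axis starts at 0. The groups separate only for Tgfbr1 (621 to 775 in WT, 462 to 561 in cKO), and cKO replicate 2 stands above the other libraries for Il2rg, Il10ra, Ifnar1, Tgfbr2 and Tnfrsf13b.

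A single library, cKO replicate 2, held the highest value of 5 of the 10 receptors (Il2rg, Il10ra, Ifnar1, Tgfbr2 and Tnfrsf13b), while 21.5% of all genes tested were highest there. Summed markers of other B cells, plasma cells, T cells and macrophages were also highest in that library. Among WT libraries these 5 receptors were highest in replicate 3. The T cell (615) and macrophage (129) sums were lowest there, and the naive and memory B cell (5485) and plasma cell (12951) sums highest. Naive and memory B cell markers (all 9 listed genes measured, each with its highest value in cKO replicate 2, none at 0) summed to 2508 to 5485 normalized counts in WT libraries and to 4179, 10213 and 5983 in cKO. T cell markers (9 of 9, each highest in cKO replicate 2) summed to 615 to 714 in WT and to 781, 1636 and 523 in cKO. Of that sum Lck, which was high in every library, made up 469.8 to 691, and the defining T cell gene Cd3e stood at 20.7, 12.8 and 5.98 in WT libraries and at 27.1, 140.5 and 6.13 in cKO libraries, with Cd3d, Cd3g and Cd8a at 0 in cKO replicate 3. Macrophage and monocyte markers (9 of 9, of which 6 were highest in cKO replicate 2) summed to 129 to 307 in WT and to 325, 484 and 306 in cKO, with C1qb at 0 in cKO replicate 3 and C1qc at 0 in WT and cKO replicate 3. Plasma cell markers (6 of 6, of which 4 were highest in cKO replicate 2) summed to 8329 to 12951 in WT and 7131 to 16139 in cKO, again with the top value in cKO replicate 2. Most of that sum was Jchain, at 7012, 6937 and 10944 in WT libraries and 5765, 13478 and 5836 in cKO libraries. Xbp1 was highest in WT replicate 1 and Prdm1 in WT replicate 3, with Prdm1 at 102, 58.6 and 107 in WT and 41.8, 64.5 and 69.4 in cKO. NK cell, dendritic, erythroid and stromal markers were scarce, and the highest of their sums in any library was 102.1 (erythroid, cKO replicate 3). The part of these cells in the receptor values was not tested, and in bulk RNA fewer cells of a type and less RNA per cell cannot be told apart.

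**Figure D4:**
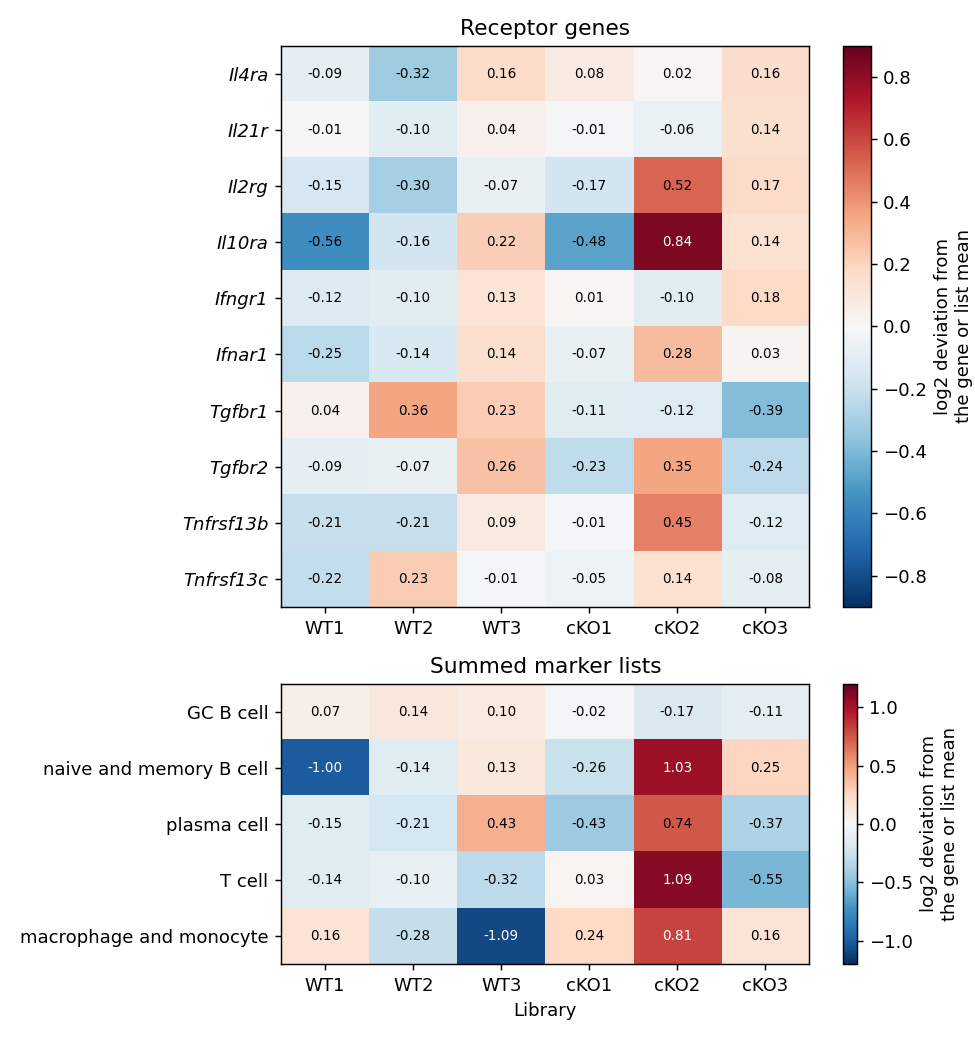
Deviation of each library from the mean over the 6 libraries, in log2 units, for the 10 receptors (top) and for the summed normalized counts of 5 marker lists (bottom, with a wider colour scale). cKO replicate 2 is the highest library for Il10ra (0.84), Il2rg (0.52) and Tnfrsf13b (0.45) and for the 4 lists other than GC B cells.

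Other receptor chains of these pathways gave 0 calls among 25 tested genes, and 0 had groups that did not overlap (11.6% of all genes). The chains had positive log2 differences in 18 of 25, with a median of 0.24. That median was 0.0066 without cKO replicate 2, which held the highest value of 17 of the 25, and it was -0.15 in replicate 1 and 0.39 in replicates 2 and 3. Il7r is in this list and in the T cell markers, and Tnfrsf17 is in this list and in the plasma cell markers. The 3 with the smallest unadjusted p were Acvr1b, an activin receptor kinase (139 ± 6.93 normalized counts in WT libraries and 97.5 ± 37.3 in cKO), Il6ra, the IL-6-binding chain (87.4 ± 10.8 and 146.5 ± 86.9) and Bmpr2, a bone morphogenetic protein receptor (2.25 ± 2.57 and 9.41 ± 9.01). Limma adjusted p-values of these were 0.915, 0.926 and 0.928. The groups overlapped in each, and the Il6ra and Bmpr2 values were highest in cKO replicate 2, at 247 and 19.0. Acvr1b overlapped only through cKO replicate 2, at 140 beside 78.6 and 73.5 in cKO replicates 1 and 3 and 131 to 145 in WT. Its log2 difference was -0.57, and -0.86 without cKO replicate 2. Without that library those of Il6ra and Bmpr2 were 0.15 and 0.78. The Bmpr2 values rest on low read numbers.

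Ligand transcripts were scarce in these sorted B cells, apart from Tgfb1. Of 15 ligands 13 were in the table and 9 passed the filter on low values. Tgfb1, named after its values were seen, measured 494 ± 66.4 in WT and 528 ± 56.2 normalized counts in cKO. Il10, an immunosuppressive cytokine, measured 4.04, 11.7 and 13.7 in WT and 1.63, 0 and 16.3 in cKO, Il4 measured 0, 0 and 1.71 and then 0.542, 3.80 and 2.04, and Il2 measured 0, 4.26 and 2.56 and then 0.542, 0 and 2.04. These values rest on low read numbers, and 0 of the 9 tested ligands were called, with 0 non-overlapping (11.6% of all genes).

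JAK, STAT and feedback genes had 0 calls in 18, and 4 had all cKO libraries above all WT libraries, where 6.28% of all genes did. These were Jak3, the kinase that binds the common gamma chain (397 ± 24.99 normalized counts in WT libraries and 511 ± 28.7 in cKO), Stat5a (234 ± 30.7 and 309 ± 12.1), the phosphatase gene Ptpn6 (3852 ± 159 and 4535 ± 85.2) and Stat2, of interferon signalling (433 ± 25.4 and 550.0 ± 136). Jak3 stood at 425, 391 and 376 in WT and 515, 480.2 and 537 in cKO. Its log2 difference was 0.36 (95% confidence interval 0.070 to 0.66), with 0.28 in replicate 1, 0.41 in replicates 2 and 3 and 0.41 without cKO replicate 2, and its limma adjusted p was 0.915. For Stat5a, Ptpn6 and Stat2 the log2 differences were 0.41, 0.24 and 0.32 and the limma adjusted p-values 0.915, 0.915 and 0.924. The Stat2 groups lie apart only by 461 in WT replicate 3 against 463 in cKO replicate 1, and cKO replicate 3 was highest at 707. The median over the 18 genes was 0.18, at -0.052 in replicate 1 and 0.27 in replicates 2 and 3.

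SMAD pathway genes, downstream of Tgfbr1 and Tgfbr2, had 0 calls in 11 and a median log2 difference of -0.0034. Zfyve9, an adaptor that presents SMADs to the receptor, was the single gene of the 11 without overlap (11.6% of all genes in either direction). It measured 0 to 1.52 normalized counts in WT libraries and 1.90 to 2.71 in cKO, which is only a few reads per library. The values of cKO replicates 2 and 3 (1.90 and 2.04) are a single read each. In WT replicate 1 a read is worth 0.506, so the 1.52 there rests on more reads than either. The corepressor gene Ski measured 33.4, 28.7 and 42.7 in WT and 38.5, 149.9 and 44.9 in cKO, with cKO replicate 2 far above the rest. Smad2 measured 379 ± 42.3 in WT and 334 ± 22.3 in cKO. Limma adjusted p-values of Ski, Zfyve9 and Smad2 were 0.922, 0.928 and 0.930.

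Genes of BAFF receptor signalling had 0 calls in 14, 11 of which had positive log2 differences, with a median of 0.11. Nfkb2, whose product p100 is processed when BAFF-R signals, measured 953, 788 and 950.0 normalized counts in WT libraries and 974, 1181 and 1268 in cKO. Relb, the partner of processed p100, measured 232, 227 and 289 in WT and 312, 328 and 306 in cKO. Both, 2 of the 14, had all cKO libraries above all WT libraries (6.28% of all genes), with log2 differences of 0.34 and 0.35 and limma adjusted p-values of 0.915 each. Nfkb2 differed by 0.031 in replicate 1 and by 0.50 in replicates 2 and 3, and Relb by 0.43 and 0.31. Without cKO replicate 2 the differences were 0.31 and 0.32. The ubiquitin ligase gene Birc3 measured 828 ± 71.2 in WT and 957 ± 175 in cKO.

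Target genes that these receptors are known to induce had 0 calls in 16 tested, and 9 of the 16 had positive log2 differences. Their median was 0.21, at -0.23 in replicate 1 and 0.39 in replicates 2 and 3. In 4 of the 16 every cKO library lay above every WT library, where 6.28% of all genes did. These were the interferon-induced gene Ifit3 (3.03, 1.06 and 5.98 normalized counts in WT libraries and 6.51, 17.1 and 12.3 in cKO), Nfkb2, the NF-kB cofactor gene Bcl3 (144 ± 16.1 and 169.9 ± 11.5) and Il4i1, an amino acid oxidase gene induced by IL-4 (1659.8 ± 138 and 1867 ± 91.7). The Ifit3 values rest on low read numbers, and its groups lie apart only by 5.98 in WT replicate 3 against 6.51 in cKO replicate 1. A single read is worth 2.04 normalized counts in cKO replicate 3. Isg15, another interferon-induced gene, measured 22.7, 7.45 and 12.8 in WT and 55.9, 87.3 and 14.3 in cKO. Limma adjusted p-values were 0.915 for Ifit3, Nfkb2 and Isg15 and 0.928 for Bcl3 and Il4i1. The list shares genes with the BAFF, JAK and SMAD lists and with the naive B cell markers (Nfkb2, Socs3, Smad7 and Fcer2a are examples), so these counts are not separate.

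**Figure D5:**
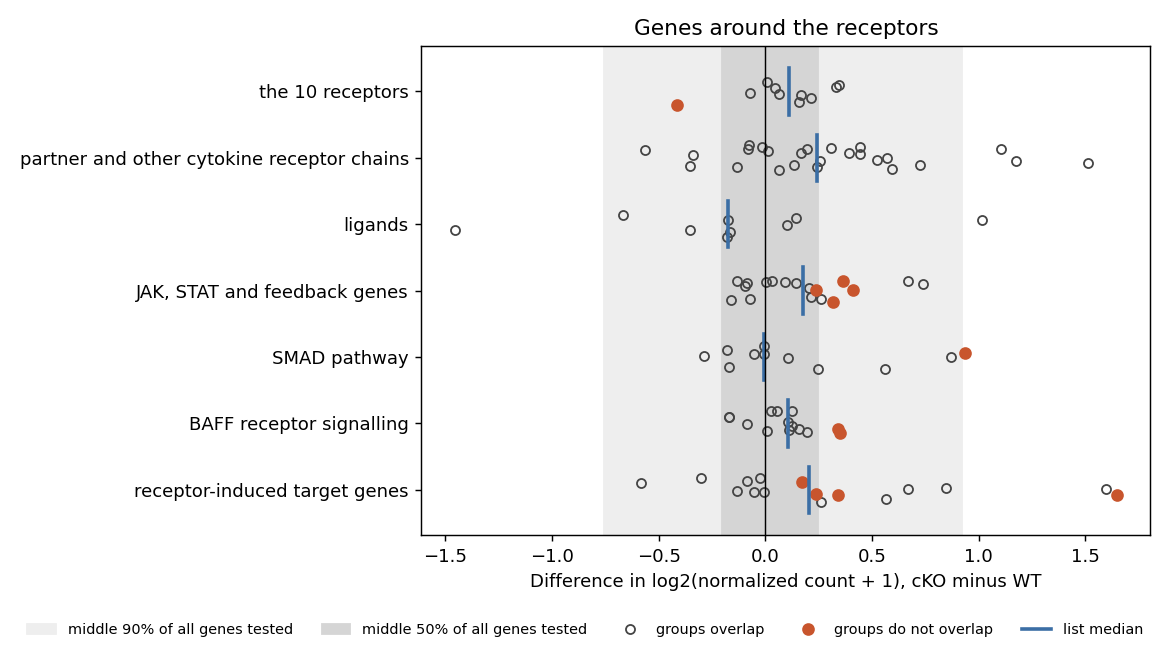
Difference in log2(normalized count + 1), cKO minus WT, for each tested gene of the receptor set and of 6 lists around it. Filled points mark genes whose groups do not overlap, blue lines list medians, and the grey bands hold the middle 50% and 90% of all genes tested. Medians run from -0.17 (ligands) to 0.24 (partner and other chains).

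Among 6781 genes with a mean of at least 100, the nearest to Tgfbr1 in profile over the 6 libraries were Med14, a subunit of the Mediator complex, Prkd3, a protein kinase D gene, and Senp5, another SUMO protease gene. Likeness was the root mean square difference of log2 deviations, which was 0.039, 0.042 and 0.058 for these 3. Med14 measured 669.95 ± 55.4 normalized counts in WT libraries and 502 ± 39.2 in cKO, Prkd3 1162 ± 120.2 and 908 ± 129, and Senp5 186 ± 26.3 and 140.1 ± 19.9. The nearest to Il10ra, the receptor with the largest spread, were the chromatin organizer gene Satb1 (0.091), Gimap8, a GTPase gene of lymphocytes (0.11), and the chromatin remodeler gene Chd2 (0.11). Chosen for their likeness to Il10ra, each of these 3 was likewise highest in cKO replicate 2, at 294, 708 and 896 normalized counts, and lowest in a replicate 1 library. These profiles describe the 6 libraries and say nothing of shared control.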

How the data were processed

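RNA from 6 libraries (3 WT, 3 cKO) was sequenced. Per the submitters' processing notes, TopHat2, HISAT2, HISAT, SAMtools, HTSeq and DESeq2 were used with the mm10 genome; their versions and roles, the annotation and the strand setting are not given in these sources. The authors deposited a signal per gene and library, reads divided by a size factor. The deposited log2 fold change, test score and p-value are the authors' own results, and those printed are named as theirs. All values were whole multiples of 1 read (100% within 0.01 read), so reads were recovered; a single read equals 0.506 to 1.06 units in WT libraries and 0.542 to 2.04 in cKO libraries.

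The planned test for values of this kind was limma 3.58.1 in R 4.3.3 (eBayes with trend) applied to log2(value + 1) for 14678 genes with a mean of at least 1 and genotype alone in the model, with a Benjamini-Hochberg adjusted p under 0.05 as the call. The added 1 shrinks fold changes of low genes. Alternatives were edgeR 4.0.16 and DESeq2 1.42.0 on recovered reads, and other scalings, filters and pseudocounts. A replicate block, a term for replicate 1 and each library left out were alternatives too. The main fit, edgeR, DESeq2 and the term for replicate 1 were run on simulated data first, and the other alternatives were not. Positions and exon lengths came from GENCODE M21 (GRCm38; 19563 gene identifiers found), and promoters from RefSeq. Sums of NK cell, dendritic, erythroid and stromal markers ran from 10.3 to 91.1, 2.17 to 24.7, 3.25 to 102 and 0 to 4.34 over the 6 libraries.

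The 10 receptors and all lists were chosen with earlier results of these data known. Named genes were the 10 receptors, Senp1, the 3 genes of smallest unadjusted p per list, genes without overlap, and the 3 nearest profiles to the receptor of smallest p and to that of largest spread.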

Additional observations from a re-analysis of the deposited data

How the results depend on the processing

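Of the 10 receptors, 0 passed an adjusted p under 0.05 in any of the 18 alternatives (lowest 0.359). Senp1 also failed with limma in the main fit (adjusted p 0.111) and without cKO replicate 2 (0.395), and in edgeR (0.145). It passed with limma and a term for replicate 1 (0.0160) and in DESeq2 (2.78e-09). Where Senp1 failed, a missing call says little about the smaller receptor differences. Of 180 recomputed differences, 167 kept their sign. That tally holds differences that could not turn. The filters on low values, the replicate block and the term for replicate 1 change the p-values and leave each difference as in the main fit. With library totals alone the log2 differences of Il21r (-0.035), Ifngr1 (-0.017) and Tnfrsf13c (-0.071) turned negative. That of Tnfrsf13c also turned in replicates 2 and 3 only (-0.075), with a term for replicate 1 and cKO replicate 2 left out (-0.030), and without WT replicate 1 (-0.10) or cKO replicate 2 (-0.059). Tgfbr2 turned positive when WT replicate 3 (0.041), cKO replicate 1 (0.023) or cKO replicate 3 (0.029) was left out, Il10ra turned without cKO replicate 2 (-0.0058), and Il21r (-0.016) and Ifngr1 (-0.013) without cKO replicate 3. With single libraries left out, Tnfrsf13c ranged from -0.10 to 0.12, Tgfbr2 from -0.27 to 0.041, Il10ra from -0.0058 to 0.66, Il21r from -0.016 to 0.087, Ifngr1 from -0.013 to 0.14, Il4ra from 0.047 to 0.29, Ifnar1 from 0.058 to 0.27, Il2rg from 0.17 to 0.52, Tnfrsf13b from 0.044 to 0.33, Tgfbr1 from -0.50 to -0.32 and the median of the 10 from 0.051 to 0.21. Over all genes, DESeq2 called 20, the replicate block 1, the term for replicate 1 called 3, and that term without cKO replicate 2 called 16, where limma called 0; leaving out single libraries gave 0. The labels call the mice paired without saying that replicate numbers mark the pairs. Deviations of same-numbered WT and cKO libraries correlated at 0.69, 0.054 and 0.31, so the numbers were not taken as pairs, and cKO replicate 2 correlated best with WT replicate 3 (0.36); with the replicate block the adjusted p of Tgfbr1 was 0.463 and 0 receptors were called. Depth limits Il10ra and Ifnar1 most, with as few as 90 and 105 reads.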
